A study of Homo sapiens with 36 samples.

Results

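The Tribbles family of pseudokinases was followed at the mRNA level in U2OS cells, a human osteosarcoma line, during activation of the integrated stress response (ISR). The family has 3 genes, TRIB1, TRIB2 and TRIB3, which were taken by symbol, and all 3 were among the 19043 genes tested out of 57665 in the tables. Every culture carried Dmr-PERK, in which the eIF2α kinase domain of mouse PERK is joined to DmrB, a domain that pairs when its ligand AP20187, called dimerizer, is present. Cells were wild type (WT) or ATF4 knockout (labelled ATF4KO), and were untreated (0 h) or had received dimerizer at 1 labelled dose for 2, 4, 8, 16 or 24 h. The 12 groups had 3 libraries each, 36 in all. All cells grew in DMEM with serum, non-essential amino acids and beta-mercaptoethanol. The unit of the dose, the kind of lesion in ATF4 and whether each line was 1 clone are not given in the sources used here. Untreated cells were collected at 0 h and not at later hours, so hours in culture and dimerizer cannot be told apart within a genotype.

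Tribbles proteins have the fold of a kinase but little or no catalytic activity. They act as scaffolds: a pocket in the pseudokinase domain holds a substrate such as a C/EBP transcription factor, and the C-terminal tail recruits the ubiquitin ligase COP1, which marks the substrate for degradation. TRIB1 and TRIB2 are known as oncogenes of myeloid leukaemia. TRIB3 is known as a target gene of ATF4 and CHOP in stressed cells, and its protein has been reported to bind AKT and ATF4 itself.

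Total counts per library ran from 8608783 to 16265056. Levels are counts scaled to library size (CPM, TMM-scaled) as mean ± SD with n = 3. Changes are log2 fold changes ± SE from edgeR's quasi-likelihood test over all 36 libraries, and p values are adjusted over all tested genes (Benjamini-Hochberg). Calls were made at adjusted p values below 0.05, and "rose" or "fell" is used of called changes. Whether the 3 libraries of a group came from separate cultures is not labelled. The p values then measure only how far these libraries spread, which may be technical. Of the mesenchymal markers, VIM ran from 1590 to 3060 CPM, COL1A1 from 306 to 1470 CPM and RUNX2 from 21.3 to 56 CPM, while the bone markers SP7 and IBSP had 8 and 4 counts over all libraries and COL1A2 reached at most 1.12 CPM. Summed epithelial, blood and endothelial markers, 3 genes each, ran from 3.54 to 13.6, from 0.744 to 10.3 and from 0.235 to 6.46 CPM. The part of these markers in the results below was not tested. In such bulk libraries, fewer cells with a transcript and less of it per cell cannot be told apart.

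ATF4 mRNA was present in the libraries labelled ATF4KO. At 0 h it stood at 310.1, 323 and 322 CPM in WT and at 259, 274 and 265 CPM in the knockout, and at 24 h at 703 ± 12 and 731 ± 25.1 CPM. These counts cover the whole gene and do not check the genotype, since a lesion that stops the protein can leave the mRNA. Directions below are therefore those between the libraries as labelled.

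TRIB3 (ENSG00000101255.10) lies on the plus strand of chromosome 20 at 362835 to 397559 in GRCh38, with 4 transcripts in GENCODE 29 and no other gene overlapping it. ATF4 and a C/EBP partner are known to bind a joint element often written TGATGNAA, and this motif was searched on both strands of the Tribbles transcripts. The reference transcript TRIB3-201 holds 3 matches in its exon 1, annotated as UTR, while the other 3 TRIB3 transcripts hold none. They are shown because TRIB3 was the member whose level differed most between the genotypes. Each is printed on the plus strand with 11 bases on either side, and the capitals mark the match, which reads TGATGCAA on the other strand.
chr20:380881-380910: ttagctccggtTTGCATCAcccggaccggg
chr20:380914-380943: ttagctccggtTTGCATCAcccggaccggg
chr20:380947-380976: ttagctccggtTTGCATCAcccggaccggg
The 3 windows are identical in sequence and repeat every 33 bases. The last match ends 330, 341 and 378 bases before the 3 TRIB3 starts listed by RefSeq (GRCh38.p14). Of 78125 protein-coding transcripts of at least 500 bases, 6136 (7.85%) hold a TGATGNAA match in their first 500 bases, and 24 of them, from 14 genes and with TRIB3-201 among them, hold at least 3 matches there. In the 300-base promoter windows of RefSeq, from 250 bases before to 50 after each start, 3.62% of 35116 hold a match. The windows of TRIB3 and TRIB2 hold none, and a window for TRIB1 was not analysed here. Over whole transcripts, none of the 4 of TRIB2 holds a match, and of the 4 of TRIB1, TRIB1-201 and TRIB1-202 hold 1 each and the other 2 none. The promoter windows of TRIB3 do not reach back to its 3 sites. The sequence upstream of TRIB1, and that of TRIB2 beyond its window, was not searched. The 3 genes are thus not compared over like regions. A match is a string of letters and not a measured binding site.

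In WT cells TRIB3 rose at every time, and by 24 h it was 15.8-fold above its untreated level. The 3 untreated WT libraries gave 26.7, 25.7 and 27.4 CPM, and those at 2 h gave 44.6, 43.3 and 53.5 CPM. After 4 h TRIB3 stood at 210.9, 196 and 201 CPM, and after 8 h at 409.6, 406 and 430.1 CPM. All libraries at each of these times were above all libraries of the time before. The level was then 338, 343.5 and 334 CPM at 16 h and 409.6, 429 and 429.5 CPM at 24 h, so the 16 h libraries lay below those on either side and the 8 h and 24 h ranges overlapped. The WT changes were 0.82 ± 0.07 at 2 h (edgeR adjusted p = 1e-12), 2.93 ± 0.06 at 4 h, 3.96 ± 0.05 at 8 h, 3.67 ± 0.05 at 16 h and 3.99 ± 0.05 at 24 h (adjusted p = 6.2e-41). Among the 10522 genes whose mean reached 10 CPM, the WT change of TRIB3 ranked 69 from the highest at 2 h, 4 at 4 h, 2 at 8 h, 8 at 16 h and 6 at 24 h.

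**Figure D1:**
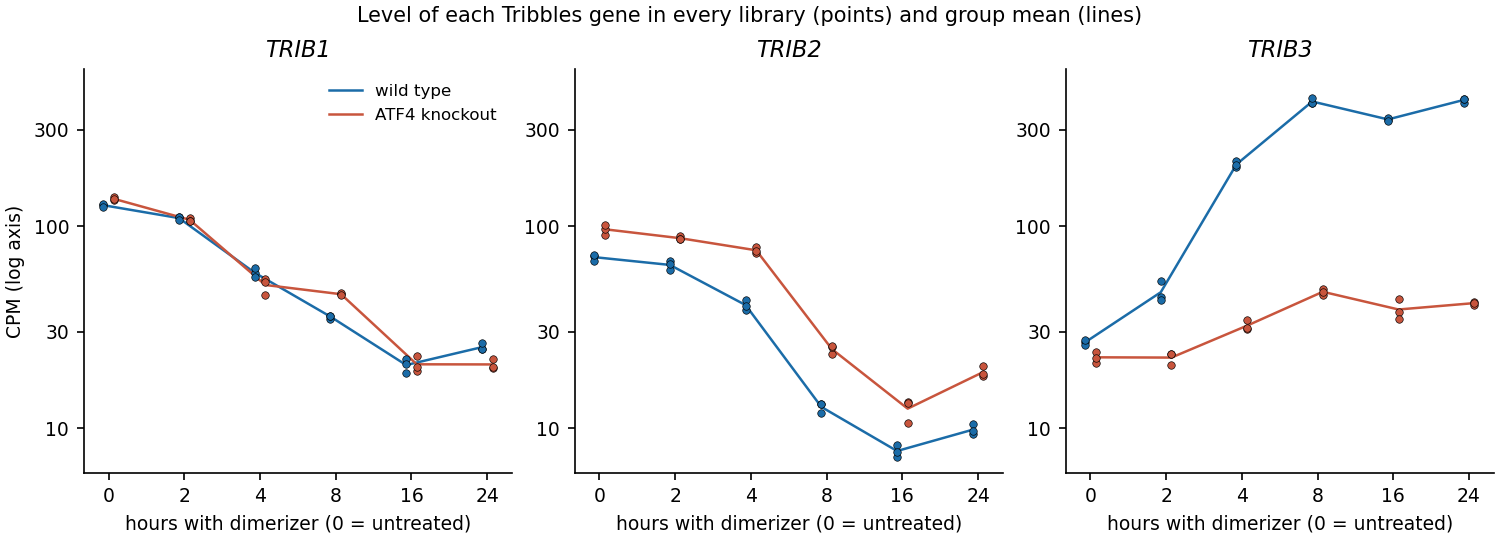
Level of TRIB1, TRIB2 and TRIB3 in CPM (log axis) against hours with dimerizer, spaced evenly by time point; points are libraries and lines join the group means of wild-type (blue) and ATF4 knockout (red) cells. TRIB3 parts between the genotypes from 2 h on and reaches a mean of 423 CPM in wild type and 41.6 CPM in the knockout at 24 h, while TRIB1 and TRIB2 fall in both.

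In ATF4 knockout cells TRIB3 also rose, later and by less. Untreated knockout libraries gave 23.9, 21 and 22.4 CPM and those at 2 h gave 23.3, 20.6 and 23.2 CPM, which overlapped. The level was then 30.8, 34.4 and 31.3 CPM at 4 h, 48.9, 45.8 and 47.5 CPM at 8 h, 37.5, 43.7 and 34.9 CPM at 16 h and 42.2, 40.8 and 41.8 CPM at 24 h. From 4 h on, every treated knockout library was above every untreated one. No rise was called at 2 h, where the change was -0.01 ± 0.09 (edgeR adjusted p = 0.94). The later changes were 0.52 ± 0.08 at 4 h, 1.08 ± 0.07 at 8 h, 0.78 ± 0.08 at 16 h and 0.89 ± 0.07 at 24 h, all called, the largest adjusted p of the 4 being 1.3e-06. At 8 h that is a 2.12-fold rise, beside 15.6-fold in WT at the same time.

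The 2 genotypes differed in the response of TRIB3 at all 5 times. Taken as knockout minus WT, the difference of the changes was -0.84 ± 0.11 at 2 h (edgeR adjusted p = 7.4e-06), -2.40 ± 0.10 at 4 h, -2.88 ± 0.10 at 8 h, -2.88 ± 0.10 at 16 h and -3.09 ± 0.10 at 24 h (adjusted p = 3.2e-26). At 2 h only 0.299% of all tested genes were called for such a difference, and TRIB3 was the only Tribbles gene among them. At 4 h 3.28% of tested genes were called, and TRIB3 had the fifth most negative difference of the 10522 genes of at least 10 CPM. Every knockout library from 4 h to 24 h stayed below every WT library of the same hour, and at 2 h the highest knockout library, at 23.3 CPM, was below the lowest WT one, at 43.3 CPM. Against WT at the same hour, knockout TRIB3 was lower by 1.09 ± 0.07 at 2 h and by 3.35 ± 0.05 at 24 h in log2 (10.2-fold).

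Before dimerizer the genotypes lay close together. Untreated knockout TRIB3, at 22.4 ± 1.45 CPM, was called lower than untreated WT TRIB3, at 26.6 ± 0.844 CPM, by -0.25 ± 0.08 (edgeR adjusted p = 0.018), and the 2 ranges did not overlap. This small difference lost its call when any 1 of 4 libraries was left out: WT replicate 1 (-0.25, adjusted p = 0.051), WT replicate 3 (-0.23, adjusted p = 0.069), knockout replicate 2 (-0.21, adjusted p = 0.092) or knockout replicate 3 (-0.25, adjusted p = 0.061).

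**Figure D2:**
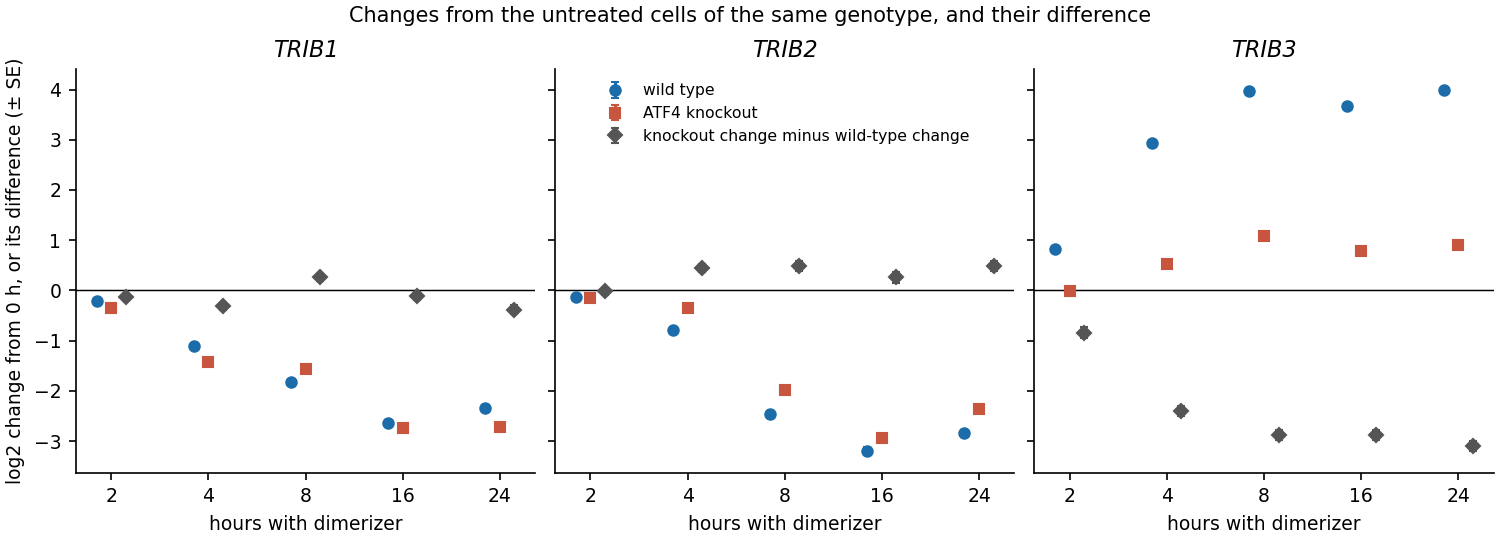
Log2 change of each Tribbles gene from the untreated cells of the same genotype (blue circles wild type, red squares ATF4 knockout) and the difference, knockout minus wild type (grey diamonds), with SE, at 2 to 24 h. The difference for TRIB3 runs from -0.84 at 2 h to -3.09 at 24 h, while those for TRIB1 and TRIB2 stay between -0.38 and 0.49.

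TRIB2 (ENSG00000071575.11) lies on the plus strand of chromosome 2 at 12716889 to 12742734 in GRCh38, has 4 transcripts and hosts the microRNA gene MIR3125. Its mRNA fell in both genotypes and was higher in the knockout at all 6 times. Untreated WT libraries gave 71.1, 67.5 and 72.4 CPM, against 90.9, 97.2 and 101.9 CPM in the knockout, with no overlap. At 4 h WT libraries stood at 38.5, 43.2 and 40.4 CPM and knockout libraries at 79.2, 73.3 and 75.6 CPM. All 3 knockout libraries after 4 h of dimerizer were thus above all 3 untreated WT libraries. At 2 h, between these, the levels were 67.2, 60.9 and 65 CPM in WT and 89.3, 86.4 and 86 CPM in the knockout. By 8 h they had dropped to 13.2, 11.9 and 13.2 CPM in WT and 23.2, 25.2 and 25.4 CPM in the knockout.

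The lowest TRIB2 levels came at 16 h. WT libraries then gave 7.22, 8.28 and 7.59 CPM and knockout libraries 13.5, 10.6 and 13.4 CPM, from no fewer than 90 reads in any library. By 24 h the level was higher again than at 16 h in every library of both genotypes, at 10.4, 9.37 and 9.65 CPM in WT and 20.4, 18.1 and 18.5 CPM in the knockout. The WT changes were -0.80 ± 0.06 at 4 h, -2.47 ± 0.07 at 8 h, -3.20 ± 0.07 at 16 h (edgeR adjusted p = 2e-33) and -2.84 ± 0.07 at 24 h. Those in the knockout were -0.35 ± 0.05, -1.98 ± 0.06, -2.94 ± 0.07 and -2.36 ± 0.06 at the same times, all called. At 8 h in WT only 23 of the 10522 genes of at least 10 CPM had a more negative change than TRIB2.

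At 2 h TRIB2 was called lower in both genotypes by a small margin, by -0.14 ± 0.05 in WT (edgeR adjusted p = 0.04) and -0.16 ± 0.05 in the knockout (adjusted p = 0.017). In WT the call was lost without untreated replicate 1 (-0.13, adjusted p = 0.1) or 3 (-0.12, adjusted p = 0.16) and without 2 h replicate 2 (-0.10, adjusted p = 0.25) or 3 (-0.15, adjusted p = 0.059). It was lost in the knockout without untreated replicate 3 (-0.11, adjusted p = 0.18) and without 2 h replicate 2 (-0.15, adjusted p = 0.071) or 3 (-0.15, adjusted p = 0.062). With DESeq2 neither change at 2 h was called (adjusted p = 0.084 in WT and 0.078 in the knockout).

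Against WT at the same hour, knockout TRIB2 was higher by 0.46 ± 0.05 at 0 h (edgeR adjusted p = 3.4e-10), 0.44 ± 0.05 at 2 h, 0.91 ± 0.06 at 4 h, 0.95 ± 0.08 at 8 h, 0.72 ± 0.10 at 16 h and 0.94 ± 0.09 at 24 h. The ranges of the 2 genotypes did not overlap at any of the 6 times. Of all tested genes, 23.5%, 21.5%, 27.1%, 34.6%, 36.2% and 38.1% were called between the genotypes at 0, 2, 4, 8, 16 and 24 h. The fall itself was smaller in the knockout at 3 of the 5 times: the difference of the responses was 0.45 ± 0.08 at 4 h (adjusted p = 5.9e-05), 0.49 ± 0.10 at 8 h (adjusted p = 0.00021) and again 0.48 ± 0.10 at 24 h (adjusted p = 0.00031). It was not called at 2 h, at -0.02 ± 0.07 (adjusted p = 0.98), or at 16 h, at 0.26 ± 0.11 (adjusted p = 0.091). The 16 h difference passed without untreated knockout replicate 3 (0.30) or 16 h knockout replicate 2 (0.35, adjusted p = 0.022). On log2(TPM + 1), leaving out the third untreated knockout column, none of the 3 called differences passed in limma (adjusted p = 0.39, 0.19 and 0.051 at 4, 8 and 24 h).

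TRIB1 (ENSG00000173334.3) lies on the plus strand of chromosome 8 at 125430321 to 125438405 in GRCh38, has 4 transcripts and overlaps no other gene. Its mRNA fell at every time in both genotypes. The untreated libraries gave 128, 129 and 124.5 CPM in WT and 134.5, 139.5 and 136.5 CPM in the knockout. The 2 h libraries overlapped between the genotypes, at 111, 110.9 and 107 CPM in WT and 110.4, 106.5 and 106 CPM in the knockout. By 4 h the level was 58.7, 56 and 61.8 CPM in WT and 45.6, 55 and 53 CPM in the knockout, with no overlap between any treated library from 2 h on and the untreated ones of its genotype. At 8 h the order of the genotypes was the other way round, with 34.9, 36.1 and 36 CPM in WT and 46, 46.5 and 45.7 CPM in the knockout.

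At 16 h TRIB1 gave 22, 20.8 and 18.8 CPM in WT and 19.1, 22.9 and 20.1 CPM in the knockout, which overlapped. At 24 h the levels were 24.6, 24.5 and 26.4 CPM in WT, above the 16 h libraries, and 19.9, 22 and 20.1 CPM in the knockout, which overlapped its 16 h range. The WT changes were -0.21 ± 0.04 at 2 h (edgeR adjusted p = 0.00012), -1.11 ± 0.05 at 4 h, -1.83 ± 0.05 at 8 h, -2.64 ± 0.05 at 16 h and -2.34 ± 0.05 at 24 h. Those in the knockout were -0.35 ± 0.04 (adjusted p = 4.9e-08), -1.43 ± 0.05, -1.57 ± 0.05, -2.74 ± 0.06 and -2.72 ± 0.05. At 4 h in the knockout TRIB1 had the ninth most negative change of the 10522 genes of at least 10 CPM, and in WT it ranked 48 from the lowest.

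The response of TRIB1 differed between the genotypes by little and in both directions. Knockout minus WT, the difference of the changes was -0.32 ± 0.07 at 4 h (edgeR adjusted p = 0.0027), 0.26 ± 0.07 at 8 h (adjusted p = 0.0085) and then -0.38 ± 0.08 at 24 h (adjusted p = 0.00034). It was not called at 2 h, at -0.14 ± 0.06 (adjusted p = 0.6), or at 16 h, at -0.11 ± 0.09 (adjusted p = 0.4). Knockout TRIB1 itself was lower than WT at 4 h by -0.21 ± 0.06 and at 24 h by -0.27 ± 0.07, and higher at 8 h by 0.37 ± 0.06. Without knockout 4 h replicate 1, the lowest of its group, the difference of the responses at 4 h was -0.23 (adjusted p = 0.051) and that of the levels -0.13 (adjusted p = 0.11). At 0 h knockout TRIB1 was 0.11 ± 0.04 above WT, which was not called (adjusted p = 0.053) but passed with RLE scaling (adjusted p = 0.048). On log2(TPM + 1), leaving out the third untreated knockout column, the 3 called differences of the responses did not pass in limma (adjusted p = 0.39, 0.45 and 0.089 at 4, 8 and 24 h).

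Counted over the family, all 3 genes were called at every time in WT, TRIB3 higher and the other two lower, while 22.6%, 44.7%, 59.3%, 66.5% and 65.4% of all tested genes were called at 2, 4, 8, 16 and 24 h. In the knockout 2 of 3 were called at 2 h, beside 18.3% of tested genes, and all 3 later, beside 42.4% at 4 h, 61.9% at 8 h, 65.7% at 16 h and 65.4% at 24 h. For the difference of the responses 1 of 3 was called at 2 h, 3 at 4 h, 3 at 8 h, 1 at 16 h and 3 at 24 h. Of all tested genes 0.299%, 3.28%, 18.3%, 27.7% and 29.8% were called for it at these times. From 8 h on most tested genes were called within a genotype, so the sizes above say more of the members than the counts do.

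Ordered over the 12 groups, TRIB1 was highest in untreated knockout cells and then in untreated WT cells. Its 3 lowest groups, WT at 16 h and the knockout at 24 h and 16 h, overlapped. The order for TRIB2 had only 1 overlapping pair of neighbours, the knockout at 16 h and WT at 8 h, and its 3 highest groups were the knockout at 0, 2 and 4 h. TRIB3 was highest in WT at 24 h and 8 h, which overlapped, then in WT at 16 h and 4 h. Knockout TRIB3 at its highest, 47.4 ± 1.56 CPM at 8 h, overlapped WT TRIB3 at 2 h, 47.1 ± 5.56 CPM. Over the 12 group means of log2 CPM, Pearson's r was 0.907 between TRIB1 and TRIB2, -0.554 between TRIB1 and TRIB3 and -0.74 between TRIB2 and TRIB3. The points share libraries and a time course, so these values are a description only.

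Levels can be compared between the 3 genes only per length, for which the deposited TPM, which are scaled by transcript length, were used. In untreated WT cells TRIB1 stood at 58.9 ± 1.42 TPM, TRIB2 at 31.5 ± 1.66 TPM and TRIB3 at 17.6 ± 0.367 TPM. At 24 h TRIB3 was at 262 ± 7.08 TPM, TRIB1 at 10.9 ± 0.802 TPM and TRIB2 at 4.05 ± 0.612 TPM. TRIB3 had gone from the lowest of the 3 genes to the highest, and TRIB1 was above TRIB2 at both times. As a share of the TPM of the 3 genes, TRIB3 went in WT from 16.3 ± 0.622% at 0 h to 27.2 ± 2.79% at 2 h, 74.4 ± 1.58% at 4 h and 94.6 ± 0.128% at 24 h. The sum of the 3 genes went from 108 ± 2.38 TPM at 0 h to 292 ± 4.93 TPM at 8 h and 277 ± 7.73 TPM at 24 h.

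**Figure D3:**
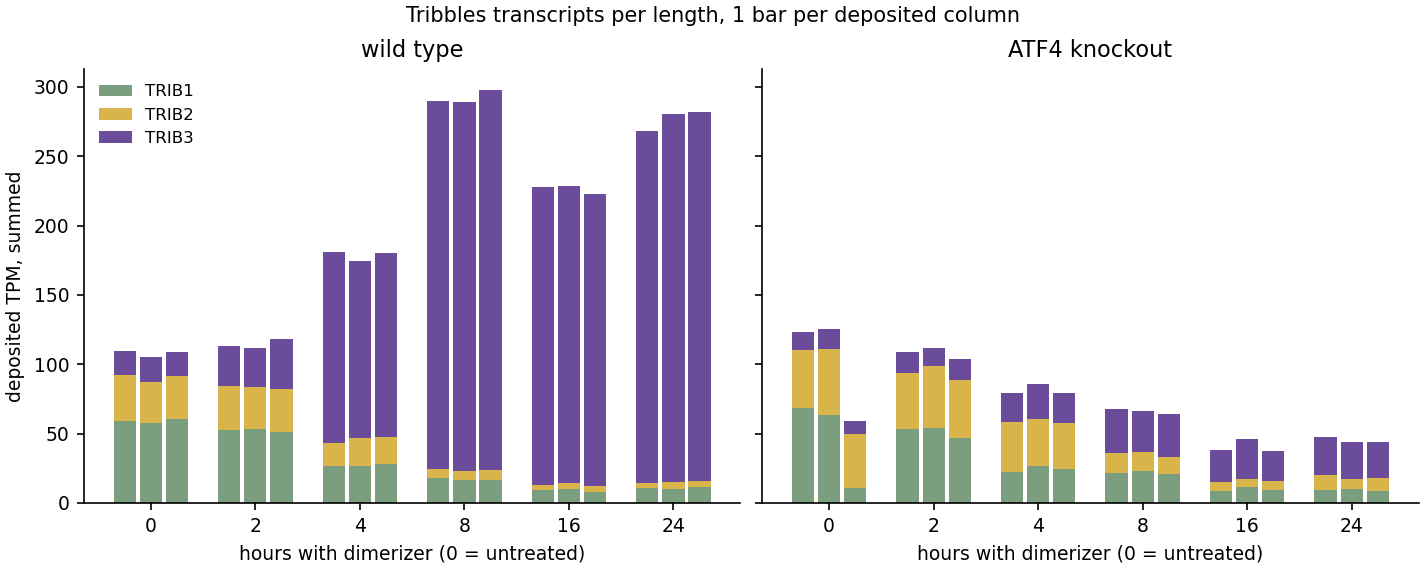
Deposited TPM of TRIB1, TRIB2 and TRIB3 stacked, 1 bar per deposited column, against hours with dimerizer in wild-type (left) and ATF4 knockout (right) cells. TRIB3 makes up nearly all of the wild-type bars from 8 h on, the knockout bars shrink to a mean of 44.9 TPM at 24 h, and the third untreated knockout column has a short TRIB1 segment of 10.8 TPM.

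In the knockout the sum at 24 h lay below that of each untreated column, which was not tested. TRIB3 still came to be the largest of the 3. The untreated knockout TPM need care: of the 36 TPM columns, 33 best matched the count column of the same name, and the 3 exceptions were these. Columns 1 and 2 best matched the counts of replicates 2 and 3, and column 3 matched none well, with a highest r of 0.514. TRIB1 was listed there at 68.1, 63.1 and 10.8 TPM in columns 1, 2 and 3, although its counts gave 134.5 to 139.5 CPM in all 3 libraries. The TRIB3 share was 10.9% and 11.7% in columns 1 and 2 and 15.7% in column 3. It was 46.5 ± 1.39% at 8 h and 59.3 ± 1.33% at 24 h, when TRIB3 was at 26.6 ± 0.589 TPM, TRIB1 at 9.40 ± 0.755 TPM and TRIB2 at 8.89 ± 1.7 TPM. The sum of the 3 genes in the knockout went from 123.5 and 125.5 TPM in columns 1 and 2 at 0 h, and 59.2 TPM in column 3, to 65.8 ± 1.89 TPM at 8 h and 44.9 ± 1.97 TPM at 24 h.

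The genes whose course was most like that of each member were found by Pearson's r over the 12 group means of log2 CPM, among genes of at least 10 CPM. For TRIB3 they were ARHGEF2 (r = 0.997), SARS (0.991), SH3BP2 (0.990), UHRF1BP1 (0.989) and FAM107B (0.986). ARHGEF2, which encodes a guanine nucleotide exchange factor, went in WT from 82.6 ± 0.513 CPM at 0 h to 252 ± 11.6 CPM at 4 h and 366 ± 3.65 CPM at 8 h, and in the knockout from 77.9 ± 4.44 to 103 ± 4.3 and 118 ± 2.11 CPM. SARS, the cytosolic seryl-tRNA synthetase gene, went in WT from 169 ± 4.12 CPM at 0 h to 566.5 ± 9.11 CPM at 8 h and in the knockout from 139 ± 2.11 to 192 ± 4.04 CPM. Both courses are shallower than that of TRIB3, since r measures shape and not size.

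For TRIB2 the most similar genes were CACFD1 (r = 0.992), ERBB2 (0.991), S1PR3 (0.991), C10orf10 (0.990) and CNN2 (0.989). ERBB2, the gene of the HER2 receptor tyrosine kinase, went in WT from 81.3 ± 4.32 CPM at 0 h to 28.5 ± 0.456 CPM at 16 h and in the knockout from 88.1 ± 1.26 to 35.1 ± 0.581 CPM. For TRIB1 they were SRCIN1 (r = 0.991), COPB2 (0.981), PIEZO2 (0.980), HNMT (0.977) and KLHL9 (0.977). SRCIN1, which encodes an inhibitor of SRC signalling, went in WT from 17.5 ± 0.55 CPM at 0 h to 7.87 ± 0.129 CPM at 16 h. With RLE in place of TMM scaling, 4 of the 5 genes for TRIB1, 4 of 5 for TRIB2 and 5 of 5 for TRIB3 were the same.

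The ligase that Tribbles proteins recruit moved in the opposite direction to TRIB1 and TRIB2. COP1, listed in the tables under its older symbol RFWD2, stood at 36.4, 34.1 and 33.1 CPM in untreated WT libraries and at 61.4, 60.7 and 61.3 CPM at 24 h, a rise of 0.82 ± 0.05 (edgeR adjusted p = 1.4e-18). In the knockout it went from 33.7, 30.4 and 33 CPM to 46.6, 50.5 and 50.4 CPM, a rise of 0.61 ± 0.05. In neither genotype did the 24 h libraries overlap the untreated ones. The difference of the rises, knockout minus WT, was -0.21 ± 0.07 (adjusted p = 0.02), a call that was lost without the filter on low counts (-0.20, adjusted p = 0.17) and in DESeq2 (-0.22, adjusted p = 0.062).

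Of 8 genes listed for the COP1 ligase and its relatives, 6 rose and 2 fell in WT at 24 h (median log2 change 0.23), and 5 rose and 2 fell in the knockout (median 0.19), while 33% of all tested genes rose and 32.4% fell in WT, and 32.4% rose and 33% fell in the knockout. CUL4A, a scaffold of the cullin ligases that hold COP1, rose by 0.28 ± 0.04 in WT and 0.41 ± 0.04 in the knockout, while its paralog CUL4B fell, by -0.69 ± 0.05 and -0.45 ± 0.05. RBX1, the RING subunit of these ligases, fell in WT by -0.22 ± 0.05 and rose in the knockout by 0.21 ± 0.05. DET1, an adaptor of the complex, rose in WT by 0.49 ± 0.11 and was not called in the knockout, at 0.02 ± 0.11 (adjusted p = 0.89). DDB1, also of this list, rose by 0.15 ± 0.02 in WT and by 0.37 ± 0.02 in the knockout (edgeR adjusted p = 5.8e-17). The difference for DDB1 was 0.22 ± 0.04 (adjusted p = 3e-06). The median log2 change of all tested genes at 24 h was -0.02 in WT and -0.03 in the knockout.

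STK40, a pseudokinase related to Tribbles that also binds COP1, had the largest difference between the genotypes of these 8 genes. In WT it went from 85.2, 89.6 and 89.1 CPM at 0 h to 146, 143 and 149 CPM at 4 h and 109.8, 107 and 109.8 CPM at 24 h. Knockout libraries went from 79.1, 78 and 78 CPM at 0 h to 80.5, 74.1 and 76.4 CPM at 4 h and 52.2, 49.3 and 51.4 CPM at 24 h. STK40 thus rose in WT by 0.31 ± 0.04 at 24 h and fell in the knockout by -0.62 ± 0.05, a difference of -0.93 ± 0.06 (edgeR adjusted p = 7.5e-16). For the difference at 24 h, 4 of the 8 genes were called higher and 3 lower, beside 17.7% and 12.1% of all tested genes. The 3 lower were STK40, COP1 and DET1, and without the filter or in DESeq2 STK40 alone was called lower. Of the 4 higher, CUL4A (0.14 ± 0.05, edgeR adjusted p = 0.037) lost its call with RLE scaling, without the filter and in DESeq2.

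**Figure D4:**
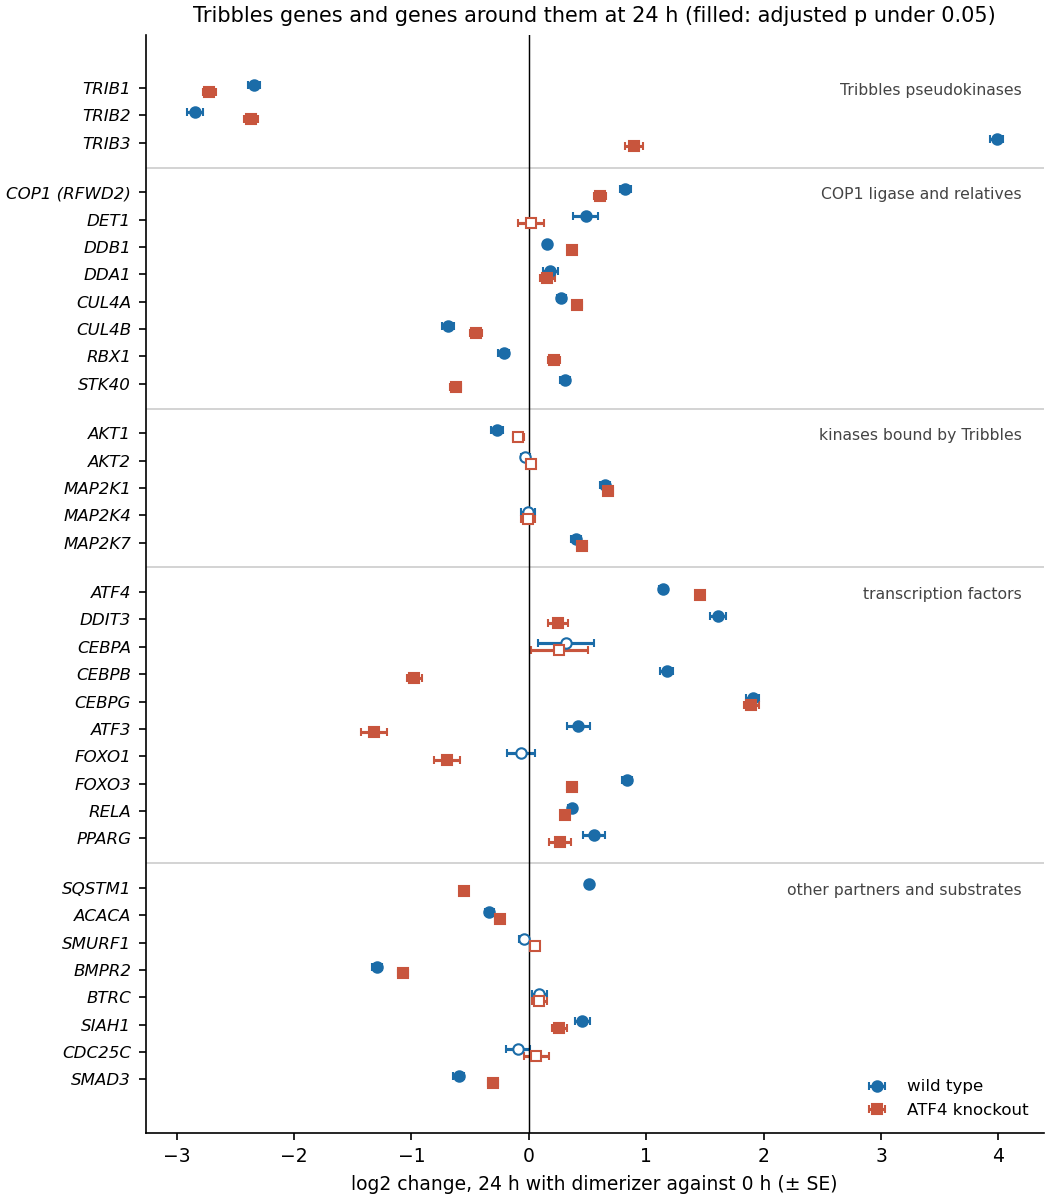
Log2 change at 24 h against 0 h, with SE, for the Tribbles genes and the 4 lists around them in wild-type (blue circles) and ATF4 knockout (red squares) cells; open symbols were not called, and 1 of the 6 kinases is not plotted. STK40, CEBPB, ATF3 and SQSTM1 lie above 0 in wild type and below it in the knockout, and RBX1 lies the other way round. MAP2K1, CEBPG and BMPR2 lie on the same side in both.

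The kinases reported to bind Tribbles proteins went in both directions. Of 6 genes, 2 rose and 2 fell in WT at 24 h (median -0.02), and 2 rose and 1 fell in the knockout (median 0.00). Of all tested genes 33% rose and 32.4% fell in WT, and 32.4% rose and 33% fell in the knockout, so a count of 2 of 6 is near the share over all genes. MAP2K1, the gene of MEK1, rose by 0.65 ± 0.04 in WT and by 0.68 ± 0.04 in the knockout, and MAP2K7, a kinase of the JNK pathway, by 0.40 ± 0.04 and 0.45 ± 0.04. The difference for MAP2K1 was 0.03 ± 0.06 (edgeR adjusted p = 0.76). AKT1, the gene of the reported TRIB3 partner, fell in WT by -0.27 ± 0.05 and was not called in the knockout, at -0.09 ± 0.05. It was the only kinase of the 6 called for the difference at 24 h, at 0.19 ± 0.07 (adjusted p = 0.049), a call that was lost with RLE scaling, without the filter on low counts and in DESeq2. At 8 h 2 of the 6 were called for the difference and at 16 h 3, all with the knockout change above the WT change. Of all tested genes 18.3% and 27.7% were called at these times, in either direction.

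Among 10 transcription factors reported upstream of Tribbles genes or bound by their proteins, 8 rose and none fell in WT at 24 h (median 0.70), while 6 rose and 3 fell in the knockout (median 0.26). Over all tested genes the shares that rose and fell were 33% and 32.4% in WT and 32.4% and 33% in the knockout. CEBPB, whose protein is both a partner of ATF4 and a Tribbles client, gave 72.5, 74.5 and 80.3 CPM in untreated WT libraries and 163, 179 and 170.2 CPM at 24 h. In the knockout it gave 70, 82.2 and 81.2 CPM at 0 h and 40.5, 37.7 and 41.3 CPM at 24 h. It rose in WT by 1.17 ± 0.05 and fell in the knockout by -0.98 ± 0.07, a difference of -2.15 ± 0.08 (edgeR adjusted p = 1.6e-23). ATF3, a stress-induced factor, at 24 h also rose in WT, by 0.42 ± 0.10, and fell in the knockout, by -1.32 ± 0.11. Its level at 2 h was above that at 0 h in both genotypes. In WT it went from 128.5 ± 9.08 to 486.5 ± 38 CPM, and in the knockout from 130.5 ± 8.9 to 396 ± 34.6 CPM. FOXO1 stood at 12.8 ± 0.994 CPM at 0 h and 7.9 ± 0.453 CPM at 24 h in the knockout. Its WT levels at these times were 9.18 ± 1.65 and 8.76 ± 0.338 CPM.

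DDIT3, the gene of CHOP, rose in both genotypes but by different amounts at 24 h, by 1.61 ± 0.07 in WT and by 0.25 ± 0.09 in the knockout (difference -1.36 ± 0.11). At 2 h knockout DDIT3 had gone from 23.5, 23.3 and 25.2 CPM to 57.4, 65.1 and 69.1 CPM. Knockout TRIB3 was not called at 2 h and rose at 4 h, and a link between the 2 genes was not tested. CEBPG, a C/EBP partner of ATF4, rose at 24 h by 1.91 ± 0.05 in WT and by 1.89 ± 0.07 in the knockout. The difference was not called, at -0.01 ± 0.09 (edgeR adjusted p = 0.95). Its level was lower in the knockout at both ends, with no overlap of libraries. At 0 h it stood at 21.4 ± 1.89 CPM in the knockout and 39 ± 1.55 CPM in WT. At 24 h these levels were 78.5 ± 7.09 and 146.7 ± 2.21 CPM. CEBPA, the C/EBP client best known in leukaemia, was low throughout, with group means of 1.71 to 2.97 CPM. It rose in WT at 4 h, from 1.74 ± 0.095 CPM at 0 h to 2.97 ± 0.255 CPM. Its knockout levels at these times were 1.71 ± 0.0469 and 2.85 ± 0.36 CPM. At 24 h CEBPA was not called in WT (0.31 ± 0.24) or the knockout (0.26 ± 0.24). At 4 h 6 of the 10 factors were called lower for the difference of the responses and none higher, beside 2.39% and 0.887% of all tested genes, and at 24 h 5 were lower and 1, ATF4, was higher (0.31 ± 0.04), beside 12.1% and 17.7%.

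Of 8 other reported partners and substrates, 2 rose and 3 fell in WT at 24 h (median -0.07), and 1 rose and 4 fell in the knockout (median -0.10). The WT counts lie near the shares of all tested genes, of which 33% rose and 32.4% fell, and in the knockout these shares were 32.4% and 33%. SQSTM1, the gene of the autophagy receptor p62, went in WT from 418, 422 and 433 CPM to 588, 613 and 615 CPM and in the knockout from 342, 359.5 and 361 CPM to 237, 241 and 246 CPM. It rose by 0.51 ± 0.03 in WT and fell by -0.55 ± 0.03 in the knockout, a difference of -1.07 ± 0.04 (edgeR adjusted p = 3e-24). BMPR2, a receptor of bone morphogenetic proteins, fell in both, by -1.29 ± 0.04 and -1.07 ± 0.04. ACACA, acetyl-CoA carboxylase, fell by -0.34 ± 0.04 in WT and -0.25 ± 0.04 in the knockout, and SMAD3 by -0.60 ± 0.04 and -0.31 ± 0.04. SIAH1, a ubiquitin ligase reported to act on TRIB3, rose by 0.45 ± 0.06 in WT and by 0.26 ± 0.06 in the knockout.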

How the data were processed

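Total RNA of cells grown in well plates was made into 36 directional libraries and sequenced on a NovaSeq, per the labels' protocols. Reads were checked with FastQC 0.11.5 and quantified with Salmon 0.9.1 against GRCh38, per the submitters' processing notes. The sources used here do not give the strand setting, the release of the annotation, whether reads were trimmed or how transcripts were summed to genes. The authors deposited 2 gene tables, 1 of expected counts and 1 of TPM, with symbols. Between 72 and 78.9% of expected counts per library were whole numbers (tolerance 1e-6), and all were rounded before fitting. No value of the authors' TPM table was below 0.102292, with no reason given in the sources used here, and TPM served to compare genes per length and as an alternative. No column was left unused.

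Of 44932 genes with any count, 19043 passed filterByExpr and were tested after TMM scaling. A single model with 12 group means was fitted in edgeR 4.0.16 and tested by quasi-likelihood, under R 4.3.3 with limma 3.58.1. There were 21 contrasts: each time against 0 h in each genotype, the knockout change minus the WT change, and knockout against WT at each time. Benjamini-Hochberg adjustment ran over all tested genes of a contrast. Alternatives tried were DESeq2 1.42.0, RLE scaling, all genes unfiltered, a model of the contrasted groups alone, the replicate number as a block, limma on log2(TPM + 1) or log2(TPM + 0.1), limma with only columns 1 and 2 of the untreated knockout TPM, and each library left out in turn. Lists are described by counts and medians, and no set test was run. A kinase gene counted in its list is not reported here by name.

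The 3 members and the lists around them were chosen with earlier results of these data known, so counts over them are descriptions. Named genes were the members and the 5 genes most correlated with each member. From each list, up to 4 genes per contrast were named by smallest adjusted p, and up to 3 that moved the other way. Not every gene within these limits is named. CEBPA lies outside that rule and was named after its values were seen. Gene positions are from GENCODE 29, whose identifiers and versions matched for the 3 members.

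Replicate pairs were not copies of each other: the chi-square of their counts per degree of freedom ran from 1.33 to 2.7 over 36 pairs. These values cannot show whether the replicates came from separate cultures. The labels do not say that replicate numbers pair wells. Same-number libraries correlated above 0.1 in every pair in 1 of 21 comparisons, ATF4KO against WT at 4 h (r from 0.139 to 0.164), and the block changed no call of a member there. The fit was tested on simulated counts of 19043 genes. In these, 100 genes per size of change were altered in WT at 8 h alone, and all else was flat. The altered genes were drawn from those above a floor of mean count. In the data 59.3% of tested genes were called in WT at 8 h, so the rates below need not hold there. For the WT change at 8 h, 69% of genes with a log2 change of 0.5 and 90% with a log2 change of 1 were found, and 12 of 18843 unchanged genes were called. The 8 h difference between genotypes gave 54%, 83% and 7.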

Additional observations from a re-analysis of the deposited data

Results flagged for a closer look

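The responses of the 2 genotypes differed by a test of the difference itself (edgeR quasi-likelihood, knockout change minus WT change in log2, adjusted over all tested genes) in 11 of 15 cases over the 3 genes and 5 times. For TRIB3 the difference was -0.84 at 2 h (adjusted p = 7.4e-06), -2.40 at 4 h (3.1e-21), -2.88 at 8 h (4.4e-25), -2.88 at 16 h (6e-25) and -3.09 at 24 h (3.2e-26), and knockout and WT libraries did not overlap at these times. For TRIB2 it was 0.45 at 4 h (5.9e-05), 0.49 at 8 h (0.00021) and 0.48 at 24 h (0.00031), a smaller fall in the knockout each time. For TRIB1 it was -0.32 at 4 h (0.0027), 0.26 at 8 h (0.0085) and -0.38 at 24 h (0.00034), so that its direction at 8 h was opposite to that at 4 h and 24 h. The differences at 2, 4, 8, 16 and 24 h share the untreated libraries of both genotypes. Of all tested genes, 0.299%, 3.28%, 18.3%, 27.7% and 29.8% were called for such a difference at 2, 4, 8, 16 and 24 h.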

How the results depend on the processing

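Of the 63 results for the 3 genes, 55 were called. Of these 55, 53 kept their direction and call under all settings on the counts, 50 also with each library of the contrast left out in turn, and 37 under every setting including TPM. With RLE scaling TRIB1 between the untreated genotypes passed (0.11, adjusted p = 0.048), as it did when the fit held the contrasted groups alone (0.11, adjusted p = 0.042). The falls of TRIB2 at 2 h were lost without the filter (WT -0.13, knockout -0.15), in DESeq2 (WT -0.14, knockout -0.15) and, in WT, when the fit held the contrasted groups alone (-0.14). DESeq2 gave no adjusted p for the differences of TRIB1 and TRIB2 at 2 h. With the replicate block no call of a member changed (TRIB3 difference at 24 h -3.09). Most libraries, 26 of 36, correlated best with their own number among the 3, so libraries of 1 number may share a part of their spread. The main model does not include replicate number. For the lists at 24 h, the number of COP1 relatives with a lower difference went from 3 to 1 without the filter and in DESeq2, and that of kinases with a higher difference from 1 to 0 with RLE, without the filter and in DESeq2. Among COP1 relatives with a higher difference, CUL4A lost its call with RLE, without the filter and in DESeq2. Without the filter the number of genes called for the difference at 2 h went from 57 to 165.

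Leaving out single libraries moved these results as follows (range of log2 values). TRIB2 at 2 h ran from -0.16 to -0.10 in WT and from -0.19 to -0.11 in the knockout, and its difference at 2 h from -0.060 to 0.025 and at 16 h from 0.18 to 0.35. TRIB3 ran from -0.0545 to 0.055 in the knockout at 2 h and from -0.29 to -0.21 between untreated genotypes. TRIB1 ran from -0.38 to -0.23 for the difference at 4 h, from -0.27 to -0.13 between the genotypes at 4 h and from -0.069 to 0.070 at 16 h.

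On TPM fewer genes were called in every one of the 21 comparisons, by more than 1.5 times in 14 on log2(TPM + 1), 14 on log2(TPM + 0.1) and 13 with columns 1 and 2 only. An example is 2465 for the difference at 24 h on log2(TPM + 1), 2412 on log2(TPM + 0.1) and 3228 with columns 1 and 2 only, beside 5684 on the counts; the cause was not tested. Directions that turned on log2(TPM + 1), with log2(TPM + 0.1) after it, were as follows. For TRIB1 they were the knockout change at 2 h (0.49, 0.51), the differences at 2 h (0.65, 0.68), 4 h (0.54, 0.56), 16 h (0.79, 0.83) and 24 h (0.49, 0.51), and the genotypes at 0 h (-0.68, -0.71) and 16 h (0.11, 0.12). For TRIB2 it was the difference at 2 h (0.0053, 0.0058), and for TRIB3 the knockout change at 2 h (0.24, 0.26). Calls lost in both were, for TRIB1, WT at 2 h (-0.16, -0.17), the knockout at 4 h (-0.56, -0.56) and 8 h (-0.72, -0.72), the difference at 8 h (1.03, 1.08) and the genotypes at 4 h (-0.15, -0.15), 8 h (0.35, 0.37) and 24 h (-0.19, -0.21). Calls lost for TRIB2 were WT at 2 h (-0.035, -0.036), the knockout at 2 h (-0.029, -0.030) and the differences at 4 h (0.43, 0.45) and 8 h (0.44, 0.51), and for TRIB3 the difference at 2 h (-0.54, -0.55). The TRIB2 knockout fall at 4 h was lost on log2(TPM + 0.1) alone (-0.32). With only columns 1 and 2 of the untreated knockout, TRIB3 in the knockout at 2 h (0.062) and TRIB1 between the genotypes at 16 h (0.11) turned. Calls then lost were TRIB1 in WT at 2 h (-0.16), its differences at 4 h (-0.30), 8 h (0.20) and 24 h (-0.34) and its genotypes at 4 h (-0.15) and 24 h (-0.19), and TRIB2 at 2 h in WT (-0.035) and the knockout (-0.093) and its differences at 4 h (0.36), 8 h (0.37) and 24 h (0.47). Every called result of TRIB3 from 4 h on kept its call under all settings.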
